A study of Mus musculus with 15 samples.

Results

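The mitochondrial carriers of the Slc25 family were examined in mouse livers given ethanol or water by gavage. Carriers were chosen by name: every gene called Slc25a and a number was taken, except Slc25a11, Slc25a12, Slc25a13, Slc25a15 and Slc25a20. The rule found 39 carriers among the 16330 genes of the deposited table, and 37 of them passed the filter on low values. Slc25a18 and Slc25a31 did not pass it and are described by their levels only. The rule itself goes by names and uses no measured value.

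RNA from 15 livers was sequenced as poly(A) libraries, which report messenger RNA. The livers belonged to 4 groups defined by an expressed construct and a gavage, and tissue was taken 6 hours after the gavage. LbNOX livers given ethanol were libraries M13 to M15 (n = 3), LbNOX livers given water were M6 to M9 (n = 4), luciferase livers given ethanol were M10 to M12 (n = 3), and luciferase livers given water were M1 to M5 (n = 5). LbNOX, from Lactobacillus brevis, oxidises NADH to NAD+ and forms water, and luciferase is an enzyme with no role in liver metabolism that served as the control construct. All groups therefore carried a construct. How the constructs were delivered, the promoter that drove them, and the strain, sex and age of the mice are not given in the sources used here. The series' design text speaks of wild type and ChREBP mice, whereas the sample titles name luciferase and LbNOX, and the titles were followed here. The labels number the livers as replicates without saying that each came from its own animal, so every p-value here covers sample-to-sample spread, which may be technical.

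Slc25 carriers are small proteins of the inner mitochondrial membrane that exchange or import metabolites, nucleotides, cofactors and ions which cannot cross that membrane unaided. In hepatocytes they link the cytosol to the mitochondrial matrix for ATP export, citrate export to lipid synthesis, amino acid breakdown and the supply of cofactors such as NAD+ and folate. A few members work elsewhere: Slc25a17 is a peroxisomal carrier and Slc25a46 lies in the outer mitochondrial membrane. The label mitochondrial therefore holds for the family but not for Slc25a17.

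Libraries held 10610038 to 23714943 recovered reads, and all values below are the authors' normalized counts, in which library depth has been divided out. All 8 hepatocyte markers examined were present in the table. In bulk tissue RNA, fewer cells of a type and less RNA per cell cannot be told apart. Libraries M3 (luciferase, water) and M8 (LbNOX, water) lay lowest for the carriers relative to their groups. In M8, 26 of 37 carriers lay below their group mean with a median deviation of −0.28 on the log2 scale, and in M3 27 of 37 lay below with a median deviation of −0.34. M15 (LbNOX, ethanol) was the next lowest, with 26 of 37 below and a median deviation of −0.15. M4 (luciferase, water) deviated upward, with 8 of 37 below and a median deviation of 0.27. The summed hepatocyte markers were 584145 normalized counts in M8, the lowest of the LbNOX water livers, 887387 in M3, within the 772725 to 992487 of the luciferase water livers, and 831004 in M15, within the 676038 to 840056 of the LbNOX ethanol livers. M15, M8 and M3 were each the highest of their group for the summed markers of Kupffer cells, endothelial cells, cholangiocytes, and T and NK cells. Kupffer cell markers (6 of 7 in the table) summed to 1679.5 in M15, 1889.7 in M8 and 2181 in M3, endothelial markers (6 of 6) to 2571, 2922 and 2631, and cholangiocyte markers (4 of 5) to 1694, 1398 and 1577 in the same order. T and NK cell markers (6 of 6) summed to 123, 99.3 and 211 in that order. M3 was also the highest for erythroid, neutrophil and stellate markers, M8 for neutrophil and fat markers, and M15 for stellate markers. M4 had the highest fat marker sum of its group, 592, and the lowest muscle marker sum, 5.86. Their part in the carrier values was not tested. Comparisons that rest on the water groups are given with and without M3 and M8 where they change. The plot of deviations by library shows this spread.

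**Figure D1:**
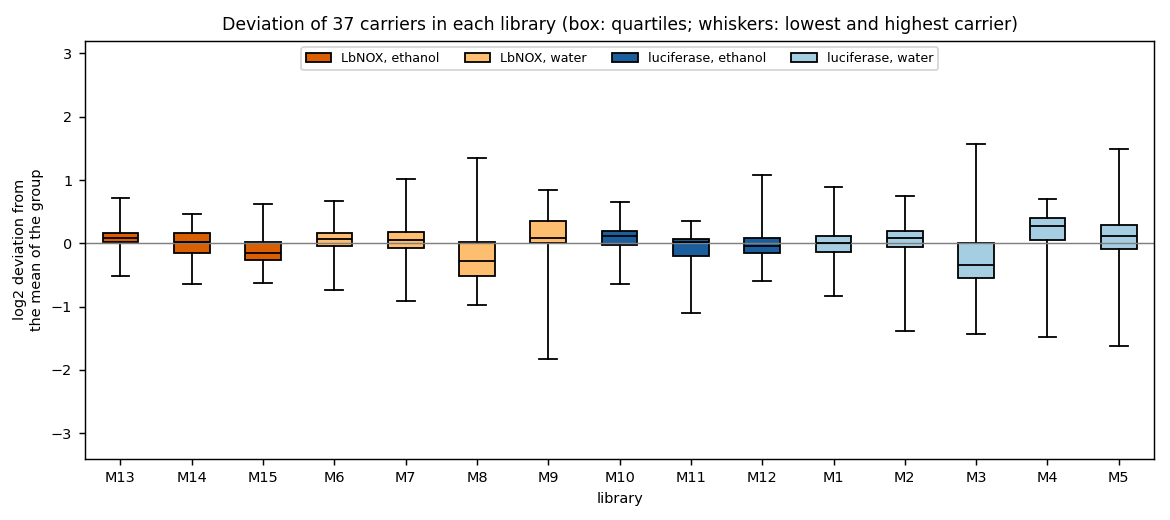
Box plots of the log2 deviation of the 37 tested carriers from the mean of their group (vertical axis) in each of the 15 libraries (horizontal axis, coloured by group), with quartile boxes, a line at the median and whiskers to the lowest and highest carrier. Libraries M8 (median −0.28) and M3 (median −0.34) sit lower than the other libraries of their groups.

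Levels between carriers were compared per kilobase of exon, as the mean normalized count over the 15 libraries divided by the length of all annotated exons. Slc25a5, the main ADP/ATP exchanger of liver, led with 6822 normalized counts per kb. The liver-enriched carrier Slc25a47 followed with 2458 and the glutathione carrier Slc25a39 with 1947 normalized counts per kb. Slc25a47 and Slc25a39 lay furthest apart in the luciferase ethanol livers, with 4598 ± 141 and 2081 ± 194 normalized counts per kb (SD, n = 3). In the other groups Slc25a47 was the lower in LbNOX ethanol livers, the higher in LbNOX water livers and nearly level with Slc25a39 in luciferase water livers. Slc25a47 and Slc25a39 had 1589 ± 478 and 1832 ± 126 in LbNOX ethanol livers, 2181 ± 473 and 1965 ± 188 in LbNOX water livers, and 1917 ± 634 and 1919.8 ± 324 normalized counts per kb in luciferase water livers. The citrate carrier Slc25a1, the phosphate carrier Slc25a3 and the dicarboxylate carrier Slc25a10 had 1602, 990.0 and 951 normalized counts per kb. The highest members of the remaining role groups were Slc25a51, which imports NAD+, with 496, the outer membrane protein Slc25a46 with 181, Slc25a30, a relative of the uncoupling proteins, with 135, and mitoferrin-1 (Slc25a37), an iron importer, with 123 normalized counts per kb. Slc25a31, an ADP/ATP exchanger known from testis, stood last with 0.625 normalized counts per kb.

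**Figure D2:**
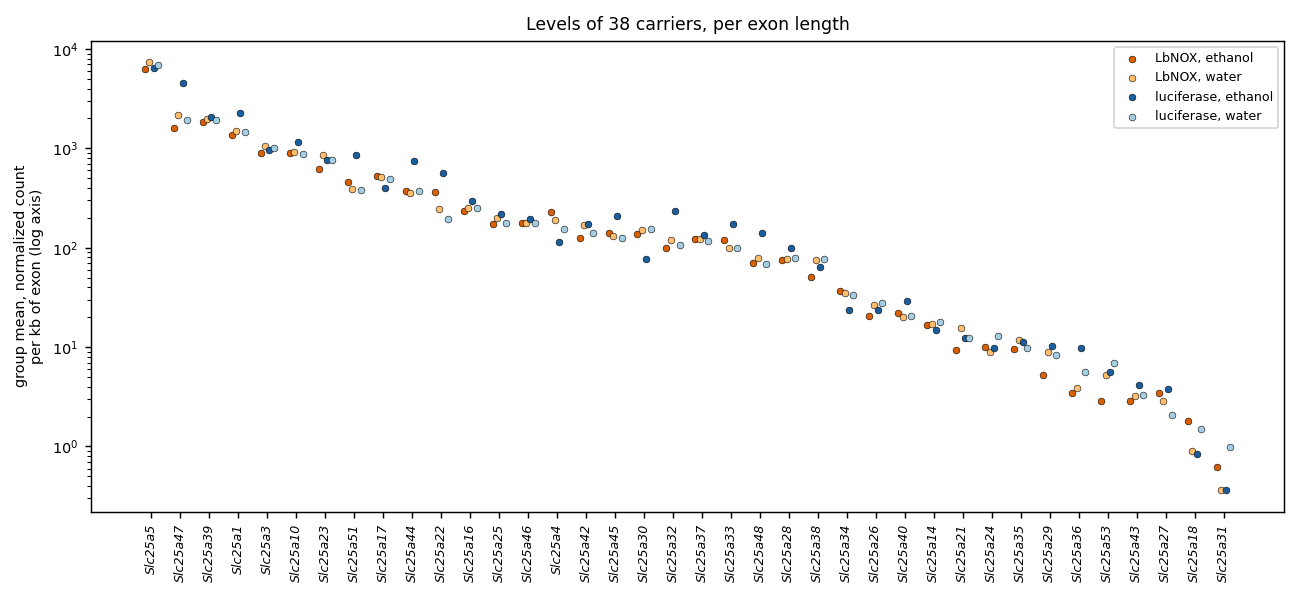
Group mean normalized count per kb of exon (log axis) of 38 carriers, ordered by their mean over 15 libraries, with 1 point for each of the 4 groups. Slc25a5 lies highest, with a mean of 6822 normalized counts per kb over all libraries, and Slc25a31 lowest at 0.625.

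Ethanol against water in luciferase livers asks how the carriers respond to ethanol when NADH is not removed by LbNOX. Of 37 tested carriers, 8 rose and 2 fell, which is 27% of the carriers, against 7.75% of all 13570 genes tested that were called in either direction. By direction, 4.62% of all genes rose and 3.13% fell. A gene was called where the Benjamini-Hochberg adjusted p of limma, over all genes tested, was below 0.05. The median log2 fold change was 0.32 over the carriers and 0.01 over all genes tested. Above 0 lay 26 of 37 carriers and 50.6% of all genes. An unadjusted p below 0.05 by limma was held by 14 carriers and by 2859 of all 13570 genes. For 12 carriers every ethanol liver lay above every water liver, and for 2 every ethanol liver lay below, against 8.32% and 6.39% of all genes. Log2 fold changes are on the scale of log2(normalized count + 1), which understates the change of low genes. Calls of carriers numbered 9 by edgeR and 12 by DESeq2, which added Slc25a22 and Slc25a40, both on the recovered reads. They numbered 11 without M3 and M8, 4 without the ethanol library M10 and 6 without the ethanol library M12. Over all genes, calls numbered 1049 by edgeR, 1621 by DESeq2, 972 without M3 and M8, 467 without M10 and 636 without M12. Markers of T and NK cells, 6 of 6 in the table, summed to 38.7 to 54.8 normalized counts in luciferase ethanol livers, against 62.2 to 211 in luciferase water livers, and 1 of the 6 fell by limma. Kupffer cell markers, 6 of 7 in the table, summed to 751 to 927 in luciferase ethanol livers, against 863 to 2181 in luciferase water livers, with 0 of 5 tested called by limma. Their part in the carrier changes was not tested.

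Carriers of cofactors and of nucleotides other than ATP held 5 of the 10 calls: 4 of 9 rose and 1 fell. Slc25a51, which brings NAD+ into mitochondria, had 4091, 5717 and 4522 normalized counts in the luciferase ethanol livers, against 2027, 2138, 1336, 2545 and 2503 in the luciferase water livers. All ethanol livers lay above all water livers (log2 fold change 1.20, SE 0.25, adjusted p = 0.00959). With LbNOX it had 3583, 2227 and 1779 in the LbNOX ethanol livers, against 1909, 2855, 1576 and 2211 in the LbNOX water livers, and those groups overlapped.

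Slc25a32, a carrier of folate and flavin, had 1621, 1297 and 1327 normalized counts in the luciferase ethanol livers, against 639, 718, 408, 705 and 799.6 in the luciferase water livers. The water livers all lay below the ethanol livers (log2 fold change 1.14, SE 0.24, adjusted p = 0.00986). The ranges of Slc25a32 overlapped with LbNOX: 609, 690.4 and 511 in the LbNOX ethanol livers, against 795, 815, 417 and 872 in the LbNOX water livers. Slc25a33, a pyrimidine nucleotide carrier, had 341, 336 and 309 normalized counts in the luciferase ethanol livers, against 179, 177, 145, 236 and 195 in the luciferase water livers. Its ethanol and water livers did not overlap either (log2 fold change 0.83, SE 0.18, adjusted p = 0.0121). Slc25a33 had 266, 182 and 224 in the LbNOX ethanol livers, against 178, 198, 141 and 228 in the LbNOX water livers, which overlapped. Without M10, Slc25a32 and Slc25a33 were no longer called by limma (adjusted p = 0.0661 and 0.0632).

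The member of the same group that fell was Slc25a17, the peroxisomal carrier of coenzyme A, FAD and NAD+. Slc25a17 had 1041, 1148 and 1201 normalized counts in the luciferase ethanol livers, against 1485, 1501, 1328, 1378 and 1349 in the luciferase water livers. Its ethanol livers were all lower, and the change was the smallest among the called carriers (log2 fold change −0.32, SE 0.09, adjusted p = 0.0413). With LbNOX it had 1580.2, 1517 and 1458 in the LbNOX ethanol livers, against 1434, 1377, 1488 and 1559 in the LbNOX water livers, and these overlapped. The other cofactor carriers were not called: Slc25a16 had a log2 fold change of 0.27, Slc25a36, a pyrimidine nucleotide carrier, 1.03, Slc25a42, a coenzyme A carrier, 0.35 and Slc25a26, which imports S-adenosylmethionine, −0.22, with adjusted p from limma of 0.377, 0.301, 0.485 and 0.552 in that order. The call of Slc25a17 was lost without any of 9 libraries, with adjusted p up to 0.200 by limma. It was also lost with no filter on low values (adjusted p = 0.0571), with no trend (0.0568) and with only the groups compared (0.146), all by limma.

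Among carriers of amino acids, glutathione and choline, 2 of 7 rose. Slc25a44, a carrier of branched-chain amino acids in mouse brown fat, had 2992, 2136 and 2829 normalized counts in the luciferase ethanol livers, against 1265, 1322, 903, 1711 and 1400.2 in the luciferase water livers. The groups did not overlap (log2 fold change 1.02, SE 0.19, adjusted p = 0.00413), and this was the smallest adjusted p of any carrier. Slc25a44 had 1493, 1509 and 1037 in the LbNOX ethanol livers, against 1264, 1419, 1321 and 1129 in the LbNOX water livers, with overlap. Slc25a48, known as a mitochondrial choline carrier, had 520.4, 400.0 and 515 normalized counts in the luciferase ethanol livers, against 224, 302, 190.3, 245 and 186 in the luciferase water livers. Every ethanol liver was higher (log2 fold change 1.07, SE 0.23, adjusted p = 0.00986). With LbNOX, Slc25a48 had 289, 194 and 227 in the LbNOX ethanol livers, against 297, 284, 164 and 331 in the LbNOX water livers, again with overlap. Without M10 its luciferase change was not called by limma (adjusted p = 0.0606), whereas Slc25a44 was called whichever library was left out.

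A further pair of carriers in this group missed the threshold although their groups did not overlap. The glutamate carrier Slc25a22 had 5031, 2789.6 and 2321 normalized counts in the luciferase ethanol livers, against 1446, 1164, 1202, 1658 and 329.8 in the luciferase water livers. Water livers differed widely among themselves, and the estimate carried a large error (log2 fold change 1.64, SE 0.61, adjusted p = 0.128). Slc25a40, a glutathione carrier, had 263, 232 and 237 normalized counts in the luciferase ethanol livers, against 160.0, 176, 174, 203 and 159 in the luciferase water livers (log2 fold change 0.48, SE 0.16, adjusted p = 0.0880). The glutathione carrier of high level, Slc25a39, had a log2 fold change of 0.13 (95% interval −0.18 to 0.44). Slc25a38, a glycine carrier, and Slc25a29, a carrier of basic amino acids, had log2 fold changes of −0.23 and 0.41 (adjusted p = 0.667 and 0.667 by limma).

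Slc25a47, whose messenger is found mainly in liver and whose substrate is unsettled, had 13638, 14183 and 13356 normalized counts in the luciferase ethanol livers, against 4485, 5205, 3763, 6625 and 8530.4 in the luciferase water livers. All ethanol livers held more than every water liver, and the fold change was the largest of the called carriers (log2 fold change 1.32, SE 0.26, adjusted p = 0.00588). With LbNOX it had 4710.3, 6187 and 3335 in the LbNOX ethanol livers, against 7061, 7181, 4406 and 7397 in the LbNOX water livers. No LbNOX liver reached the lowest luciferase ethanol liver. Of the other 5 carriers with no settled role, none was called in this comparison by limma, edgeR or DESeq2, and 1 had an unadjusted p below 0.05 by limma. Slc25a45 had 655, 557 and 525 normalized counts in the luciferase ethanol livers, against 233, 424, 239, 437 and 382 in the luciferase water livers, without overlap of the groups (log2 fold change 0.80, SE 0.29, adjusted p = 0.111). Slc25a47, like Slc25a51 and Slc25a44, was called whichever of the 15 libraries was left out.

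Among the carboxylate carriers 1 of 3 rose. Slc25a1, which exports citrate to the cytosol where it feeds lipid synthesis, had 5512, 4155 and 4960.4 normalized counts in the luciferase ethanol livers, against 3303, 2963, 2216, 3733 and 3434 in the luciferase water livers. The ethanol livers were all higher (log2 fold change 0.65, SE 0.19, adjusted p = 0.0465). Slc25a1 had 3133, 3234 and 2404 in the LbNOX ethanol livers, against 3542, 3113, 2436 and 3868 in the LbNOX water livers, and these overlapped. Slc25a10, which exchanges dicarboxylates for phosphate, had 4332, 3759.8 and 3937 normalized counts in the luciferase ethanol livers, against 3019.8, 3294, 2059, 3643 and 3237 in the luciferase water livers. Its groups did not overlap but the change was not called (log2 fold change 0.42, SE 0.17, adjusted p = 0.180). Slc25a21, a carrier of oxodicarboxylates, had a log2 fold change of 0.06 (adjusted p = 0.945 by limma). Leaving out any of 11 libraries ended the call of Slc25a1, with adjusted p up to 0.201 by limma. The call also ended with no filter on low values (adjusted p = 0.0515), with no trend (0.0635) and with only the groups compared (0.0838), all by limma.

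The uncoupling-protein-like group contained the largest decrease, and 1 of its 3 tested members fell. Slc25a30, known as kidney mitochondrial carrier 1, had 419, 353 and 287 normalized counts in the luciferase ethanol livers, against 586, 1051, 630.0, 543 and 702 in the luciferase water livers. The ethanol livers all lay below the water livers (log2 fold change −0.97, SE 0.20, adjusted p = 0.00787). With LbNOX it had 743, 555 and 585 in the LbNOX ethanol livers, against 664, 684, 825 and 606 in the LbNOX water livers, and these overlapped. Without M12 it was not called by limma (adjusted p = 0.0512). Slc25a14 and Slc25a27, both brain-enriched relatives of the uncoupling proteins, had log2 fold changes of −0.34 and 0.83 (adjusted p = 0.595 and 0.295 by limma).

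None of the 6 tested carriers of adenine nucleotides and phosphate was called in this comparison by limma, edgeR or DESeq2, and 0 had an unadjusted p below 0.05 by limma. Slc25a5 had 8935, 12005 and 11148 normalized counts in the luciferase ethanol livers, against 11624, 12042, 8556, 11639.9 and 12782 in the luciferase water livers. Its groups overlapped, and the 95% interval of the log2 fold change was −0.43 to 0.27 around −0.08. Slc25a3 had 4839, 5595 and 5706 normalized counts in the luciferase ethanol livers, against 6273, 5986, 4256, 5379 and 6016 in the luciferase water livers, which also overlapped (log2 fold change −0.04, SE 0.14, adjusted p = 0.915). Slc25a4, the ADP/ATP exchanger typical of heart and muscle, had 166, 318 and 327 normalized counts in the luciferase ethanol livers, against 474, 427, 519, 114 and 284 in the luciferase water livers. The water livers of Slc25a4 spanned the ethanol livers (log2 fold change −0.31, SE 0.41, adjusted p = 0.742). The sum of the skeletal muscle markers, of which 5 of 5 were in the table, was 769 to 967 normalized counts in the luciferase ethanol livers, against 5.86 to 740 in the luciferase water livers, and 0 of the 5 were called by limma. Their part in the Slc25a4 values was not tested. The ATP-Mg/phosphate carriers Slc25a23, Slc25a24 and Slc25a25 had log2 fold changes of 0.03, −0.03 and 0.32, with adjusted p from limma of 0.969, 0.989 and 0.634 in that order.

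The mitoferrins, which import iron, and the outer membrane protein Slc25a46, which bears on mitochondrial shape, were not called by limma, edgeR or DESeq2 either, and 0 of these 3 had an unadjusted p below 0.05 by limma. Mitoferrin-1 (Slc25a37) and mitoferrin-2 (Slc25a28) had log2 fold changes of 0.18 and 0.34, with 95% intervals of −0.07 to 0.42 and −0.00368 to 0.69. Red blood cell precursors also use mitoferrin-1, and the sum of the erythroid markers, 7 of 8 in the table, was 8483 to 14198 normalized counts in luciferase ethanol livers, against 11234 to 19059.7 in luciferase water livers. Their part in the Slc25a37 values was not tested. Slc25a46 had 0.13 with a 95% interval of −0.14 to 0.41. Together the carriers made up 0.435 to 0.450% of the normalized counts of the luciferase ethanol livers, against 0.291 to 0.370% of the luciferase water livers. Without Slc25a47 the shares were 0.350 to 0.362% in luciferase ethanol livers and 0.263 to 0.338% in luciferase water livers.

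**Figure D3:**
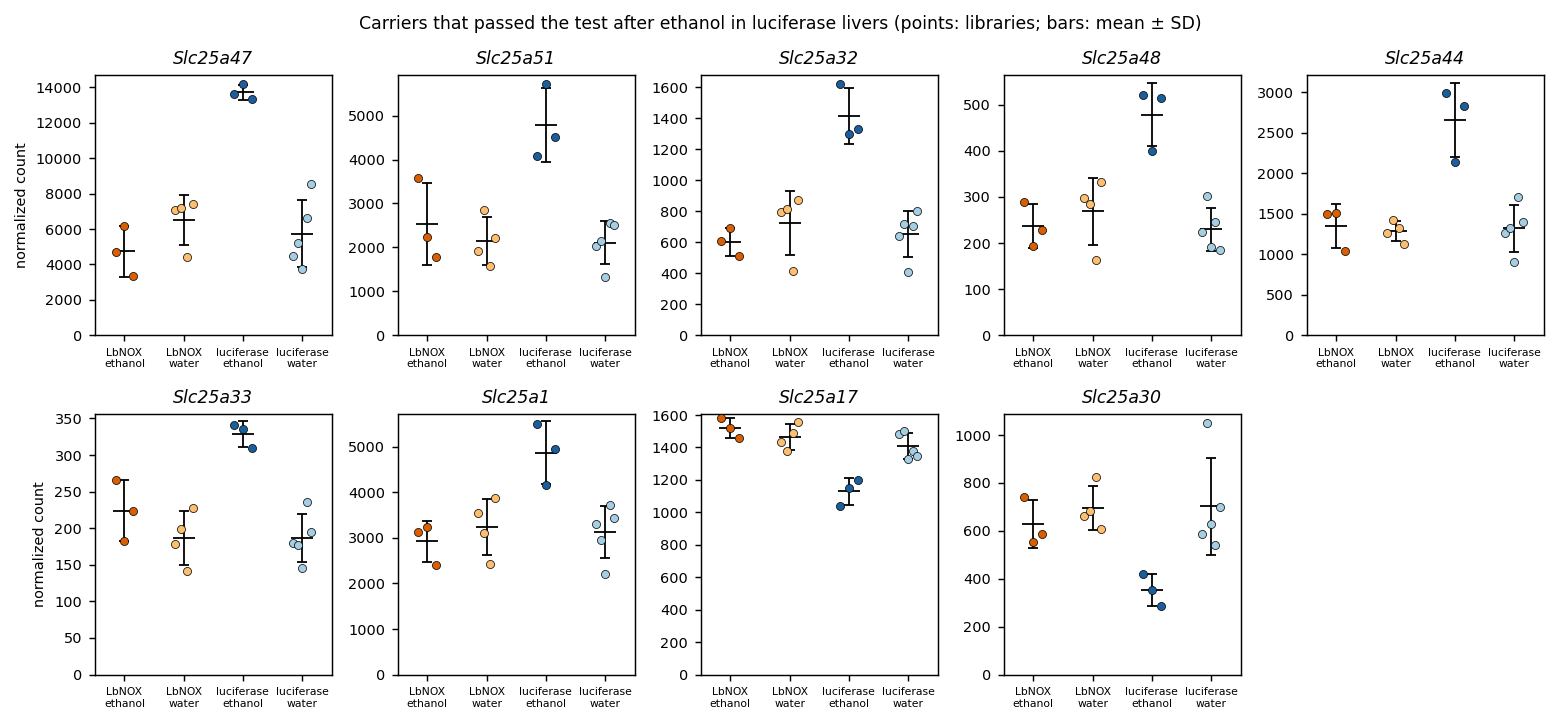
Normalized counts per library (points, linear axis from 0) with the group mean ± SD (bars) for 9 of the carriers called after ethanol in luciferase livers, in the order LbNOX ethanol, LbNOX water, luciferase ethanol, luciferase water. In luciferase livers 7 panels show every ethanol liver above every water liver, and Slc25a17 and Slc25a30 show the reverse.

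Promoter windows of called carriers are shown because members that moved in the same comparison can be read side by side. RefSeq sequences of GRCm38.p6, 250 bases before to 50 bases after a gene's start, matched 30 of the 39 carriers in 39 windows. Carriers without a matched window included Slc25a26, Slc25a27, Slc25a32, Slc25a35, Slc25a37, Slc25a44, Slc25a46 and Slc25a51. Motifs were searched on both strands: the E-box CACGTG, the CCAAT box CCAAT and the GC box GGGCGG, none of which contains another. Windows are given 5′ to 3′ on the strand of the gene, in lower case with each motif or its reverse complement in capitals. The first 4 belong to carriers that rose after ethanol in luciferase livers, and the last pair to the carriers that fell.
Slc25a47: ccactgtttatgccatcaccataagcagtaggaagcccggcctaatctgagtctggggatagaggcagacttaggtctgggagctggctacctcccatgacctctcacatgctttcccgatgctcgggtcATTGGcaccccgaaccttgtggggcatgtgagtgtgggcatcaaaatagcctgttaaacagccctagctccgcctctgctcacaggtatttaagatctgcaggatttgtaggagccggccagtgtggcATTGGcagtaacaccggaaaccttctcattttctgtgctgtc
Slc25a48: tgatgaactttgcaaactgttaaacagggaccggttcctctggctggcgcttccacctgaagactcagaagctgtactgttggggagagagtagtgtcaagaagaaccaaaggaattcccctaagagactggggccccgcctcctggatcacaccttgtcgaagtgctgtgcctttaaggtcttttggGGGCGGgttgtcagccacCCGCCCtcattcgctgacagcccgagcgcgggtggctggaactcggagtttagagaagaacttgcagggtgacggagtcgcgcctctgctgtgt
Slc25a33: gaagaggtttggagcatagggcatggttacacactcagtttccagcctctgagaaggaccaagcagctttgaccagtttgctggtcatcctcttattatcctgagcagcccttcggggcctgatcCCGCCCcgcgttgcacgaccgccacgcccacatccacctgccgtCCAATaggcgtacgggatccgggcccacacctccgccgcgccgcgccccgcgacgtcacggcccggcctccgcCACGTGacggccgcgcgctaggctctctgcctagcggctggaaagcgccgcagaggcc
Slc25a1: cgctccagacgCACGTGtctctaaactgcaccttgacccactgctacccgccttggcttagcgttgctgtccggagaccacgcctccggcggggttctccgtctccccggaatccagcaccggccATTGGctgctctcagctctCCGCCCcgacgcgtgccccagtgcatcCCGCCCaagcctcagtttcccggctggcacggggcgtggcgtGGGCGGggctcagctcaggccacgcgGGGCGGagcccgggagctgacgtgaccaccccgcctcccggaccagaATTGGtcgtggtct
Slc25a30: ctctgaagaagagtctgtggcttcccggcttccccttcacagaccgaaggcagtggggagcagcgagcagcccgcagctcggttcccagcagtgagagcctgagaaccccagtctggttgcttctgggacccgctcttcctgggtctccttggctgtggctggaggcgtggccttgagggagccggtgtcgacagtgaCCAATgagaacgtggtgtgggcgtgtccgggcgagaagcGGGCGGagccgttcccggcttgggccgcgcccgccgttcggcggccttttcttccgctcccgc
Slc25a17: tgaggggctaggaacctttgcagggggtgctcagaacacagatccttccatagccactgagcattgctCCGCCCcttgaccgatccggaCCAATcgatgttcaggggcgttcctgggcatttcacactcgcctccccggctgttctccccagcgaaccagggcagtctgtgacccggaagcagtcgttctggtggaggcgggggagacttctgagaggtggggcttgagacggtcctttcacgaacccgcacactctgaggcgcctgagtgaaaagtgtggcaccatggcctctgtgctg
The Slc25a47 window is chr12:108850879-108851178, plus strand, that of Slc25a48 chr13:56438105-56438404, plus strand, that of Slc25a33 chr4:149774218-149774517, minus strand, that of Slc25a1 chr16:17928170-17928469, minus strand, that of Slc25a30 chr14:75786988-75787287, minus strand and that of Slc25a17 chr15:81360716-81361015, minus strand. Slc25a47 holds 2 CCAAT boxes and neither of the other motifs, and Slc25a48 holds 2 GC boxes only. Slc25a33 holds 1 of each motif, and Slc25a1 holds 1 E-box, 2 CCAAT boxes and 4 GC boxes. Slc25a30 and Slc25a17, which fell, each hold 1 CCAAT box and 1 GC box. Over all 32851 promoter windows of the same length, 7.15% hold the E-box, 37.4% the CCAAT box and 35.7% the GC box, and 6, 20 and 34 of the 39 carrier windows hold them in that order. A match describes these letters and is not evidence of binding. The carriers that rose shared no single motif of these in the 4 windows shown.

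In GENCODE vM21 on GRCm38 the called carriers described above are protein-coding genes, and the counts are of whole genes. Slc25a47 is annotated at chr12:108836046-108856815 on the plus strand, and the RefSeq start above lies inside that longer gene. Its neighbour Slc25a29 lies head to head with it on the minus strand at chr12:108825873-108835883. Slc25a51 is at chr4:45395923-45408766 and Slc25a33 at chr4:149744036-149774277, both on the minus strand. Slc25a32 (chr15:39091231-39112716) and Slc25a17 (chr15:81318911-81360812) lie on the minus strand of the same chromosome. Slc25a48 is at chr13:56438355-56474239 on the plus strand, and Slc25a44 (chr3:88410498-88425139), Slc25a1 (chr16:17925223-17928219) and Slc25a30 (chr14:75760117-75787037) are on the minus strand. Exons of Slc25a33 overlap those of the non-coding gene Gm13068 on the opposite strand over 281 bases and those of Slc25a10 overlap Gm11788 over 228 bases. Whether counting used strand is not given in the sources used here, so reads in these stretches cannot be assigned to either gene.

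Ethanol against water in LbNOX livers asks for the same response where NADH is oxidised by the added enzyme. No carrier of 37 was called, against 0.00737% of all genes tested. The count of 0 comes from limma, with or without M3 and M8, and edgeR and DESeq2 on the recovered reads called 0 carriers too. By limma 2 carriers had an unadjusted p below 0.05, as had 1571 of all 13570 genes tested. The median log2 fold change was −0.08 over the carriers and −0.00389 over all genes tested. Above 0 lay 14 of 37 carriers and 49.5% of all genes. For 1 carrier all ethanol livers exceeded the water livers, against 5.42% of all genes. No carrier had all its ethanol livers below the water livers, against 5.49% of all genes. Slc25a38 (log2 fold change −0.62, SE 0.26, adjusted p = 0.383) and Slc25a26 (log2 fold change −0.39, SE 0.19, adjusted p = 0.437) were among the 3 carriers with the smallest p. The glycine carrier Slc25a38 had 148, 183 and 84.6 in the LbNOX ethanol livers, against 205, 209, 166 and 239 in the LbNOX water livers, which overlapped. Slc25a26 had 91.3, 126 and 81.0 in the LbNOX ethanol livers, against 138, 127, 120.1 and 129.8 in the LbNOX water livers, which overlapped too.

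For carriers called in luciferase livers, the LbNOX estimates were as follows. Slc25a47 had a log2 fold change of −0.47 (95% interval −1.05 to 0.11), Slc25a32 −0.22 (−0.76 to 0.33) and Slc25a48 −0.16 (−0.66 to 0.35). Slc25a51 had 0.21 (−0.36 to 0.78), Slc25a44 0.05 (−0.37 to 0.48) and Slc25a33 0.27 (−0.14 to 0.68). Slc25a1 had −0.14 (−0.56 to 0.28), Slc25a17 0.05 (−0.15 to 0.25) and Slc25a30 −0.15 (−0.59 to 0.29). None of these 9 was called by limma, and a missed threshold does not show that the carriers stayed level. Among abundant carriers, Slc25a3, Slc25a4, Slc25a5 and Slc25a10 had log2 fold changes of −0.22, 0.30, −0.23 and −0.07. The plot of both ethanol effects sets the constructs side by side.

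**Figure D4:**
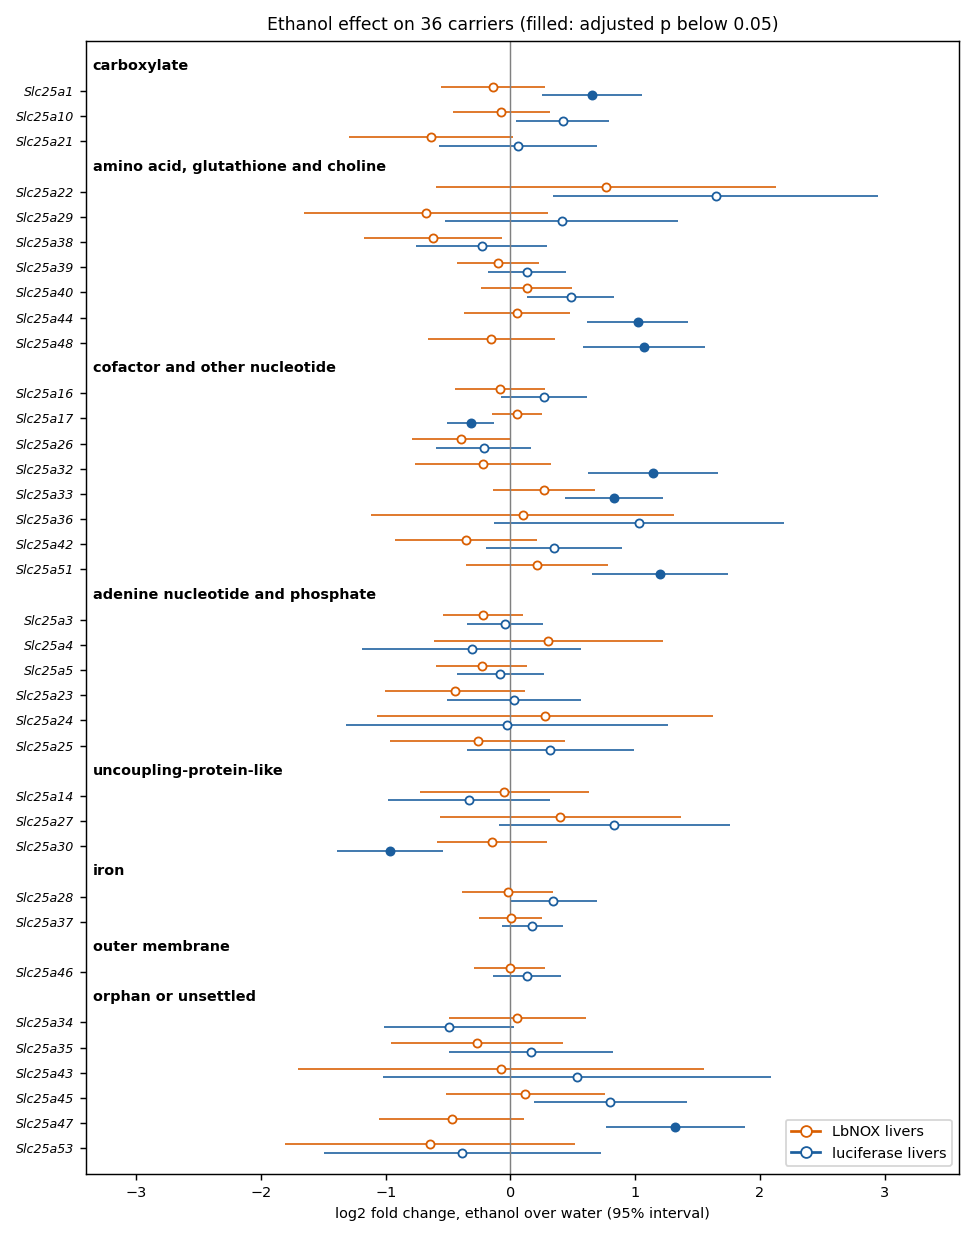
Log2 fold change after ethanol against water for 36 tested carriers in LbNOX livers (upper of each pair) and in luciferase livers (lower), with 95% intervals from limma and filled points where called. In luciferase livers 7 points above 0 and 2 below it are filled, and in LbNOX livers none is.

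Whether the ethanol effect differed between constructs was tested directly, as the LbNOX effect minus the luciferase effect. Of 37 carriers, 1 was called, which is 2.7%, against 1.67% of all genes, and it was more negative in LbNOX livers, as were 1.25% of all genes. This was Slc25a47 (difference −1.79, SE 0.38, 95% interval −2.60 to −0.99, adjusted p = 0.0300 by limma). The differences of Slc25a32 (−1.36, adjusted p = 0.0678) and Slc25a48 (−1.23, adjusted p = 0.0806) came next and were not called. This test uses all 15 libraries and so shares them with the other comparisons. Without M8, in which Slc25a47 and Slc25a32 were both far below the other LbNOX water livers, Slc25a32 and Slc25a48 passed as well (adjusted p = 0.0113 and 0.0135 by limma). M8 was the lowest of its group for Slc25a48 too. Leaving it out raised the LbNOX water means of these carriers, so the added calls are no separate support. The call of Slc25a47 was lost when any of 9 libraries was left out, with adjusted p up to 0.0922 by limma and differences of −2.01 to −1.56. The median difference over the carriers was −0.43, and 31 of 37 lay below 0. Over all genes tested the median was −0.00522, and 49.5% lay above 0. Without M3 and M8 together, which again leaves out the low M8, 3 carriers were called: Slc25a47, Slc25a32 and Slc25a48. With all libraries, edgeR called Slc25a47 alone, and DESeq2 called Slc25a17, Slc25a32, Slc25a44 and Slc25a48 beside it. Over all genes, calls numbered 382 without M3 and M8, 220 by edgeR and 633 by DESeq2.

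LbNOX against luciferase after ethanol compares the constructs directly in ethanol livers, and it shares the luciferase ethanol livers with the luciferase comparison above. Of 37 carriers, 4 were lower in LbNOX livers and 2 were higher, 16.2% of the carriers, against 6.06% of all genes called in either direction (3.82% lower, 2.24% higher). The median log2 fold change was −0.39 over the carriers and 0.00363 over all genes tested. Below 0 lay 32 of 37 carriers, whereas 50.3% of all genes lay above 0. Hepatocyte markers, 8 of 8 in the table, summed to 676038 to 840056 normalized counts in LbNOX ethanol livers and 817205 to 999929 in luciferase ethanol livers, with a median log2 fold change of −0.28 and 0 of 8 called by limma. Fat markers, 4 of 5 in the table, summed to 18.1 to 19.4 in LbNOX ethanol livers and 77.0 to 119 in luciferase ethanol livers, and muscle markers to 60.9 to 314 and 769 to 967 in the same order, both without overlap and with 0 called by limma. Their part in the carrier values was not tested. Every LbNOX liver lay below every luciferase liver for 16 carriers and above for 3, against 15.4% and 14.1% of all genes. On the recovered reads edgeR called 5 carriers and DESeq2 called 8, against 755 and 1349 of all genes. With limma, calls of carriers numbered 9 when M3 and M8 were left out, 1 without M10 or without M15, and 3 without M12 or without M14. Over all genes, limma calls numbered 1179 without M3 and M8, 316 without M10, 320 without M15, 355 without M12 and 654 without M14.

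Slc25a47 averaged 4744 ± 1426 normalized counts in LbNOX ethanol livers and 13726 ± 421 in luciferase ethanol livers (SD, n = 3 each; log2 fold change −1.58, SE 0.29, adjusted p = 0.00648). Slc25a32 averaged 604 ± 89.6 in LbNOX ethanol livers and 1415 ± 179 in luciferase ethanol livers (log2 fold change −1.23, SE 0.27, adjusted p = 0.0174). The choline carrier Slc25a48 had means of 237 ± 48.4 with LbNOX and 478 ± 67.9 with luciferase (log2 fold change −1.02, SE 0.25, adjusted p = 0.0299). Slc25a44, the branched-chain amino acid carrier, completed the lower set, and its ethanol livers held 1346 ± 268 with LbNOX and 2653 ± 454 with luciferase (log2 fold change −0.98, SE 0.21, adjusted p = 0.0151). For all 4, the LbNOX and luciferase ethanol livers did not overlap. Slc25a47 was called whichever library was left out, whereas Slc25a32 lost its call without M10, M13 or M15 (adjusted p up to 0.0803 by limma), Slc25a44 without M10, M12 or M15 (up to 0.0784) and Slc25a48 without M10, M12, M14 or M15 (up to 0.109).

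The higher carriers were the peroxisomal Slc25a17 and Slc25a30. Slc25a17 averaged 1519 ± 61.0 in LbNOX ethanol livers and 1130.0 ± 81.7 in luciferase ethanol livers (log2 fold change 0.43, SE 0.10, adjusted p = 0.0222). Slc25a30 averaged 628 ± 101 with LbNOX and 353 ± 66.1 with luciferase after ethanol (log2 fold change 0.83, SE 0.22, adjusted p = 0.0392). For both, the LbNOX and luciferase ethanol livers did not overlap. Slc25a17 lost its call without M10, M13, M14 or M15 (adjusted p up to 0.0982 by limma) and Slc25a30 without any of 8 libraries (up to 0.147). The call of Slc25a17 also ended with only the groups compared (adjusted p = 0.0722 by limma), and that of Slc25a30 with no trend (0.0567 by limma) and with edgeR (0.0501). Slc25a1 (−0.74, adjusted p = 0.0506), Slc25a51 (−0.97, 0.0607) and Slc25a33 (−0.57, 0.122) were not called by limma. Slc25a1 was called by limma under quantile normalization (adjusted p = 0.0319), with only the groups compared (0.0447) and without M3 and M8 (0.0104). DESeq2 called Slc25a1 (0.0095) and also Slc25a51. M3 and M8 are water livers outside this comparison, so leaving them out changes only the estimate of spread and adds no separate support. Slc25a10 had −0.40 (95% interval −0.82 to 0.01), Slc25a3 −0.11 (−0.45 to 0.24), Slc25a4 1.04 (0.06 to 2.03) and Slc25a5 −0.05 (−0.43 to 0.34). These intervals are not adjusted for the number of genes tested, and Slc25a4 was not called (adjusted p = 0.209 by limma). Slc25a4 is the muscle-type ADP/ATP exchanger, and the muscle marker sums of these livers were lower with LbNOX (60.9 to 314) than with luciferase (769 to 967). Their part in the Slc25a4 values was not tested.

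LbNOX against luciferase after water shows the carriers without ethanol. No carrier of 37 was called by limma, against 0% of all genes, and none had an unadjusted p below 0.05. Of all 13570 genes tested, 440 had an unadjusted p below 0.05 by limma. The other tools, edgeR and DESeq2 on the recovered reads, called 0 carriers as well, and so did limma without M3 and M8. The median log2 fold change was 0.06 over the carriers and 0.00854 over all genes tested. No carrier had groups without overlap, against 0.317% of all genes higher and 0.619% lower. The smallest p belonged to Slc25a4 (0.43, SE 0.38), Slc25a21 (0.31, SE 0.27) and Slc25a53 (−0.51, SE 0.48), each with an adjusted p of 1.00 by limma. For Slc25a47 the estimate was 0.22 (95% interval −0.29 to 0.73), with means of 6511 ± 1411 normalized counts in LbNOX water livers (SD, n = 4) and 5722 ± 1893 in luciferase water livers (SD, n = 5). Slc25a1, Slc25a3, Slc25a5 and Slc25a10 had log2 fold changes of 0.05, 0.07, 0.11 and 0.09.

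Genes with a related task were set beside the carriers: the 5 carriers the rule left out, uncoupling proteins and other family members under other names, the pyruvate carrier, outer membrane channels, sideroflexins, which carry amino acids such as serine, and the import machinery of carrier proteins. Of 31 listed, 27 were tested. In luciferase livers after ethanol 2 rose and none fell, 7.41% of the related genes against 7.75% of all genes, both among the carriers left out by the rule: Slc25a11, the oxoglutarate-malate carrier (log2 fold change 0.55, SE 0.16, adjusted p = 0.0471), and Slc25a15, the ornithine carrier of the urea cycle (log2 fold change 0.51, SE 0.14, adjusted p = 0.0401). The 9 tested import genes, 3 outer membrane channels, 2 pyruvate carrier subunits, 5 sideroflexins and 3 family members under other names held no call by limma or edgeR. Among these, 2 had an unadjusted p below 0.05 by limma, Timm10 and Sfxn5, and DESeq2 called both. Of all 13570 genes tested, 2859 had an unadjusted p below 0.05 by limma in this comparison. Between LbNOX and luciferase livers after ethanol, the sideroflexin Sfxn5 (log2 fold change −0.81, SE 0.23, adjusted p = 0.0475) and Timm10, a chaperone of the intermembrane space that escorts carriers to the inner membrane (log2 fold change −0.87, SE 0.21, adjusted p = 0.0272), were lower in LbNOX livers, again 7.41% of the related genes, against 6.06% of all genes. edgeR called Timm10 but not Sfxn5 there, and DESeq2 called both together with Slc25a11. Timm10 had 292, 309.8 and 247 normalized counts in LbNOX ethanol livers and 439, 591 and 525 in luciferase ethanol livers. In the other 3 comparisons the 27 related genes held 0 calls by limma or edgeR. An unadjusted p below 0.05 by limma was held by 3 after ethanol in LbNOX livers and 0 between the constructs after water. For the difference of the effects it was held by 4. Over all 13570 genes tested, 1571, 440 and 1988 had such a p in the same order. DESeq2 called 0, 0 and 2 of the related genes, against 282, 18 and 633 of all genes.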

How the data were processed

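RNA from 15 mouse livers was sequenced from poly(A) libraries. The authors deposited a table of normalized counts, a depth-scaled signal per gene; Salmon 1.5.1, DESeq2 1.30.1 and mm10 appear in the submitters' processing notes, whose order of steps is not given in the sources used here. Each library's values were whole multiples of a common step, so reads were recovered (100% of 244950 values whole within 0.001; steps corresponded to scaling factors of 0.723 to 1.67), giving 10610038 to 23714943 reads per library. Gene counts without molecular identifiers do not count molecules.

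Tests used limma 3.58.1 in R 4.3.3 (trend and robust options on) applied to log2(normalized count + 1). Genes had to reach 10 normalized counts in 3 libraries or more, which kept 13570 of 16330. A single fit of the 4 groups gave 5 contrasts, adjusted by Benjamini-Hochberg over all genes tested, and the code was tested on simulated data. No file or label names a batch, and no pair of libraries agreed within sampling noise. Library columns carry names but no replicate numbers.

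Alternatives were edgeR 4.0.16 and DESeq2 1.42.0 on recovered reads, quantile normalization, a pseudocount of 5, no filter, no trend, only the groups compared, each library left out, and M3 and M8 left out. The rule for naming took every called carrier (1 is counted but otherwise not reported here), the 3 smallest p where fewer than 3 were called, the highest carrier per kb of each role group, and Slc25a1, Slc25a3, Slc25a4, Slc25a5 and Slc25a10; other genes named were chosen after their values were seen. The carriers and lists were chosen with earlier results of these data known. Exon lengths and positions came from GENCODE vM21 (GRCm38) and promoters from RefSeq (GRCm38.p6).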

Additional observations from a re-analysis of the deposited data

Results flagged for a closer look

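The ethanol effect on Slc25a47 differed between constructs, by −1.79 on the log2 scale in LbNOX minus luciferase livers (adjusted p = 0.0300 by limma, n = 3 ethanol livers each, against 4 LbNOX and 5 luciferase water livers). The call was lost when any of 9 libraries was left out, with adjusted p up to 0.0922 by limma.

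Single libraries stood far from the rest of their group in 5 of 74 sets of 4 or 5 livers examined, where chance gives about 1 in 20. In the LbNOX water livers, M8 held 4406 normalized counts of Slc25a47, against 7061 to 7397 in the other 3 livers. M8 also held 417 of Slc25a32, the folate carrier, against 795 to 872 in the other LbNOX water livers. In the luciferase water livers, M3 held 8556 normalized counts of the ADP/ATP exchanger Slc25a5, against 11624 to 12782 in the other 4 livers. M3 held 748 of the ATP-Mg/phosphate carrier Slc25a25, against 1442 to 1672, and 123 of the pyrimidine nucleotide carrier Slc25a36, against 16.4 to 44.6, in the other luciferase water livers. The cause was not tested.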

How the results depend on the processing

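No paired analysis was possible because the library columns carry no replicate numbers, so a fit with a replicate block was not run. Of 78 counts recomputed under other settings, 65 stayed within 1.5 times of the reported one, and the cause of the others was not tested. The 78 leave out the fits without 1 library, and the 65 include counts of 0 that stayed at 0. Carriers called after ethanol in luciferase livers numbered 4 to 11 when single libraries were left out, and between the constructs after ethanol 1 to 8. For ethanol in LbNOX livers and for the constructs after water they stayed at 0 to 0. For the difference of the ethanol effects they numbered 0 to 3, with 3 without M3 and M8 and 5 by DESeq2. All genes called after ethanol in luciferase livers were 1052 as reported, 611 with only the groups compared, 1621 by DESeq2 and 467 to 1216 with single libraries left out. In LbNOX livers 1 gene was called as reported, 0 with no trend, 2 with only the groups compared, 116 without M3 and M8, 282 by DESeq2 and 0 to 28 with single libraries left out. LbNOX against luciferase after water gave 0 as reported, 2 without M3 and M8, 18 by DESeq2 and 0 to 1 with single libraries left out. After ethanol the constructs differed in 822 genes as reported, 1349 by DESeq2 and 316 to 940.0 with single libraries left out. The difference of the effects gave 227, 382 without M3 and M8, 633 by DESeq2 and 70.0 to 402 with single libraries left out. Carriers near 0 changed sign without being called. Under quantile normalization LbNOX against luciferase after ethanol was 0.0401 for Slc25a3 and 0.131 for Slc25a5, and with single libraries left out Slc25a5 ran over −0.17 to 0.0842. After ethanol in luciferase livers the same left-out ranges were −0.14 to 0.0311 for Slc25a3, −0.68 to 0.00724 for Slc25a4 and −0.18 to 0.0435 for Slc25a5. Of 17 calls of a carrier in a comparison, 4 held in each of the 15 fits without 1 library. Low carriers such as Slc25a31 rest on few reads, and their changes could not be resolved at this depth.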

Other observations

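Carriers at the low end of the family were read with little precision. Slc25a53, a family member with no settled substrate, had 23.5, 15.7 and 29.0 normalized counts in the LbNOX ethanol livers, 20.5, 71.9, 18.5 and 54.2 in the LbNOX water livers, 27.8, 24.5 and 82.3 in the luciferase ethanol livers and 37.8, 85.4, 59.0, 63.3 and 27.0 in the luciferase water livers. The ATP-Mg/phosphate carrier Slc25a24 ran over 20.7 to 48.4 in LbNOX ethanol livers, 12.6 to 56.2 in LbNOX water livers, 24.5 to 46.0 in luciferase ethanol livers and 13.6 to 101 in luciferase water livers. Neither Slc25a24 nor Slc25a53 was called by limma in any of the 5 comparisons.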
